A study of Mus musculus with 7 samples.

Results

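The aryl hydrocarbon receptor and 7 genes of its pathway were followed in the nasal tissue of mice that inhaled diesel exhaust particles (DEPs). The genes were the receptor *Ahr*, its partner *Arnt*, its repressor *Ahrr*, and the target genes *Cyp1a1*, *Cyp1a2*, *Cyp1b1*, *Tiparp* and *Aldh3a1*. They were found by matching the transcript named for each probe to these symbols, which gave 13 of the 39429 probes on the array. Only probes that the scanner software called well above background, for DEP or for control, on 3 or more of the 7 arrays entered the tests. Of the 13 probes 10 did so, and of all probes 25236. The 10 tested probes stood for 7 of the 8 genes, out of 20723 gene names with a tested probe. *Ahrr* had none.

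Female BALB/c mice of 6 weeks of age were placed in a closed chamber and breathed 100 µg/m3 DEPs from an ultrasonic nebulizer for 1 h a day on 5 days a week, for 4 weeks or for 8 weeks, and the control mice of the study received saline. Each array carried the RNA of exposed nasal tissue labelled with Cy5 and that of control nasal tissue labelled with Cy3, on 4 arrays after 4 weeks and 3 arrays after 8 weeks. The 32 mice of the labels are not assigned to arrays, and whether RNA of several mice was pooled is not given in the sources used here, so p values measure the spread between these samples, which may be partly technical. The dyes were not swapped, so that a dye effect particular to a probe and an effect of DEPs cannot be told apart at either time, and the arrays of 4 weeks and of 8 weeks lie on different slides, so that an effect of the slide and one of the exposure time cannot be told apart.

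AhR is a ligand-activated transcription factor of the basic helix-loop-helix PAS family. It waits in the cytoplasm in a complex with the chaperone HSP90, and binds planar aromatic compounds such as the polycyclic aromatic hydrocarbons carried by diesel soot. It then enters the nucleus, pairs with ARNT and binds the xenobiotic response element, whose core is GCGTG. Among the best known targets are the cytochrome P450 enzymes of family 1, which oxidise aromatic hydrocarbons, and *Ahrr* and *Tiparp*, whose products restrain the receptor. The olfactory mucosa is known for high levels of xenobiotic-metabolising enzymes, many of them in its sustentacular cells.

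RefSeq promoter sequences (GRCm38.p6) were at hand for 6 of the 8 genes, and the 250 bases before the transcription start were searched on both strands. The GCGTG core lay in 5 of the 6 windows, against 28.2% of 32851 windows of the same length. The extended form TNGCGTG, which contains the core, lay in 1 of them, that of *Ahrr*, against 4.1% of all windows. The windows of *Cyp1a1*, *Cyp1a2* and *Tiparp* are given because these genes passed the test described further on, in different directions, and because one of the 3 holds no core. Capitals mark the core, which appears as CACGC where it lies on the opposite strand.
Cyp1a1: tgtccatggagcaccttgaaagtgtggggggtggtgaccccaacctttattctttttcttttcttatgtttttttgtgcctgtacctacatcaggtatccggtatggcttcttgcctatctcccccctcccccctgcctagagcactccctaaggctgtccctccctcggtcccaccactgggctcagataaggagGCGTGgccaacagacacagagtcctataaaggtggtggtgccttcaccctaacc
Cyp1a2: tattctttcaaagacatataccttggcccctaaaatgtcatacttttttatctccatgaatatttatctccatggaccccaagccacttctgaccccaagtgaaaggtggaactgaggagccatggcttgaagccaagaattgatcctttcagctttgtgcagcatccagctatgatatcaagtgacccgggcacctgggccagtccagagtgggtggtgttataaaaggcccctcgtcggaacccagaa
Tiparp: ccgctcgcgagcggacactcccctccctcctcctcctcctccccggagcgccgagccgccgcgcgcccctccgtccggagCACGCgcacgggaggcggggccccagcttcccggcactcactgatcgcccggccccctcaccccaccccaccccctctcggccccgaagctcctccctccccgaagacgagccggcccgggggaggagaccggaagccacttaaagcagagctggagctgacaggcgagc
They are written 5′ to 3′ on the strand of the gene, and correspond to chr9:57697363-57697612 on the plus strand, chr9:57683656-57683905 on the minus strand and chr3:65528197-65528446 on the plus strand. The core of *Cyp1a1* lay at bases -54 to -50 from the start and that of *Tiparp* at -170 to -166. *Ahrr* held 3 cores, at -107 to -103, -82 to -78 and -27 to -23. A match in these letters is a description of the window and not of binding. Sequence farther upstream was not searched, so a window without a core does not show that the gene has none. The GC content of the 6 windows ran from 47.2% (*Cyp1a2*) to 75.2% (*Tiparp*), and the shares over all windows were not matched for it.

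The change in each array was taken as the log2 of the DEP over the control intensity, after background correction and loess normalization within the array, where loess sets the ratio of most probes at each brightness to 0. A value of 1 is a 2-fold higher intensity in DEP. The mean at each time and the difference between the times were tested by limma across all probes, with p values adjusted by the Benjamini-Hochberg method over all probes tested. Between 17105 and 26964 probes were well above background per array and channel, and no spot was saturated. Log2 ratios of all tested probes correlated at 0.44 to 0.49 between arrays of 4 weeks, 0.71 to 0.88 between arrays of 8 weeks and 0.09 to 0.29 across the times. Where several probes of a gene were tested, the gene stands for the brightest.

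After 4 weeks, 4 of the 7 genes reached the threshold, an adjusted p of 0.05. *Cyp1a1* and *Cyp1a2* were up-regulated, and *Ahr* and *Tiparp* were down-regulated. This is 57.1% of 7 genes, where 38.1% of all genes passed the same test. After 8 weeks, *Cyp1a2* alone of the 7 passed, and it was down-regulated (14.3% of the 7 against 37.2% of all genes). The difference between 8 and 4 weeks passed for *Ahr*, *Tiparp* and *Cyp1a2* (42.9% against 30.8% of all genes). The changes were small. Taking the brightest probe of each gene, the largest change was 1.35-fold at 4 weeks and 1.34-fold at 8 weeks, both for *Cyp1a2*, and at the thresholds of the study's methods, an unadjusted p of 0.01 together with a 2-fold change, 0 of the 7 genes were called at either time by limma and 0 by the methods' t-test, against 1.3% of all genes at 4 weeks and 2.93% at 8 weeks by limma. At an unadjusted p under 0.05, 6 of the 7 passed limma's test at 4 weeks, 3 at 8 weeks and 5 for the difference, where 9946, 9728 and 8800 of the 20723 genes did. The median log2 ratio of the 7 genes was -0.12 at 4 weeks and 0.08 at 8 weeks, against 0.00036 and 0.013 over all genes.

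**Figure D1:**
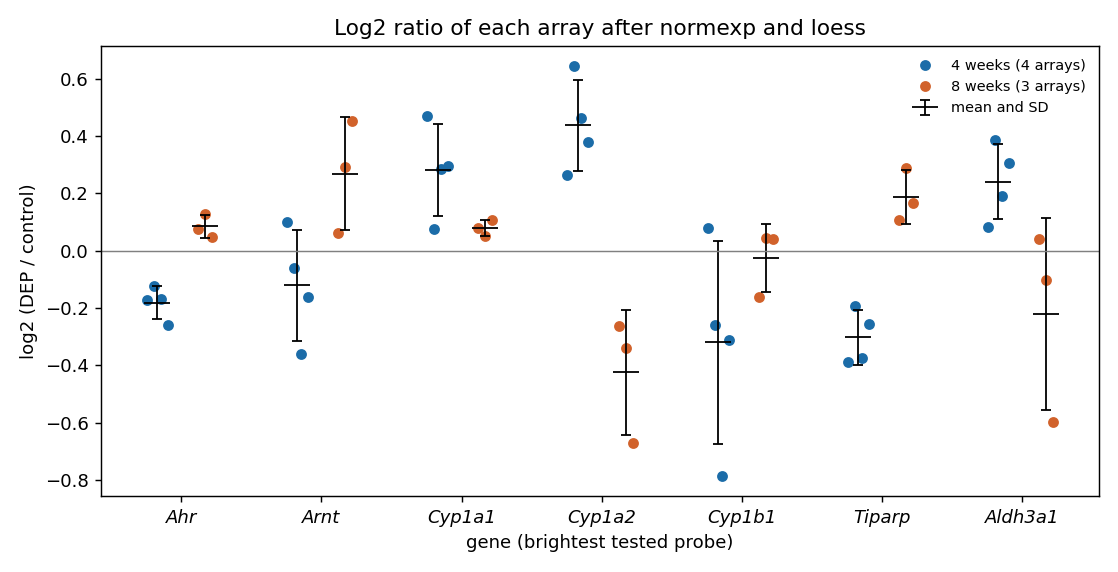
Log2 ratio of DEP over control for the brightest tested probe of each of the 7 genes, 1 point per array, with the mean and SD of the 4 arrays of 4 weeks and the 3 arrays of 8 weeks. Values are after loess. The *Cyp1a2* points lie at 0.26 to 0.64 at 4 weeks and at -0.67 to -0.26 at 8 weeks, whereas those of *Ahr* and *Tiparp* lie below 0 at 4 weeks and above it at 8 weeks.

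*Ahr*, the receptor itself, was measured by probe A_55_P2109613. Its log2 ratio was -0.17, -0.12, -0.17 and -0.26 in replicates 1 to 4 of 4 weeks. It was 0.08, 0.13 and 0.05 in replicates 1 to 3 of 8 weeks. All 4 arrays of 4 weeks were lower in DEP, all 3 arrays of 8 weeks were higher, and the values of the 2 times did not overlap. The mean at 4 weeks was -0.18 ± 0.06 (SD, n = 4), a 1.13-fold lower level (SE 0.04, limma adjusted p = 0.0151). The mean at 8 weeks was 0.08 ± 0.04 (SD, n = 3) and did not pass (adjusted p = 0.24). The difference of 0.27 passed (95% confidence interval 0.11 to 0.42, adjusted p = 0.0217). In whole tissue such as this, fewer cells that express a gene and less RNA per cell cannot be told apart.

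The signals behind these ratios stood well above background for DEP and control alike on each of the 7 arrays. Background-subtracted *Ahr* signals in replicates 1 to 4 of 4 weeks were 244, 362.5, 353.5 and 239.5 in DEP, and 378, 397.5, 460 and 378.5 in control. In the 3 arrays of 8 weeks they were 248, 243 and 205 in DEP, and 316, 301 and 308 in control. The DEP signal was thus the lower one on every array before normalization, and the positive ratio at 8 weeks appeared with the loess normalization, which added 0.35 to 0.50 to the log2 ratio of *Ahr* there. With each array centred on its median in place of loess, the 8-week mean of *Ahr* was -0.16, with a median over all genes of -0.10. The other *Ahr* probe, A_65_P06603, was not well above background on any array in either channel. The 4-week call of *Ahr* was lost without replicate 4 of 4 weeks (adjusted p = 0.0671), and that of the difference when replicate 3 or 4 of 4 weeks or replicate 2 of 8 weeks was left out (adjusted p = 0.050, 0.0573 and 0.0891). Both calls were also lost with normexp fitted on all spots (adjusted p = 0.0556 and 0.065), and with median centring the difference was 0.11 and did not pass (adjusted p = 0.431).

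*Arnt* encodes the nuclear partner that AhR shares with the hypoxia-inducible factors. With probe A_55_P2100895, its log2 ratio in replicates 1 to 4 of 4 weeks was 0.10, -0.06, -0.36 and -0.16. In the 3 arrays of 8 weeks it was 0.06, 0.29 and 0.45. After loess the arrays of 4 weeks lay on both sides of 0, all 3 of 8 weeks were positive, and the 2 groups overlapped. Before loess the log2 ratios of 8 weeks were -0.26, -0.06 and -0.04, and with median centring their mean was 0.04. The means after loess were -0.12 ± 0.19 (SD, n = 4) and 0.27 ± 0.20 (SD, n = 3). Neither passed limma's test (adjusted p = 0.305 and 0.0731), nor did the difference of 0.39 (adjusted p = 0.0614). A dimmer *Arnt* probe, A_55_P2100899, gave means of 0.08 and -0.07 (adjusted p = 0.462 and 0.593), so that the 2 probes disagreed in sign at both times.

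*Ahrr* encodes a repressor that competes with AhR for ARNT and is itself a target of the receptor. Neither of its probes, A_51_P254425 and A_55_P2128388, was well above background on any array in either channel. The background-subtracted signals of the first lay between 0 and 15. Those of the second were -4.5 to 27 in DEP and -0.5 to 54.5 in control. No fold change is given for it, and at this signal a change in *Ahrr* was not detectable.

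**Figure D2:**
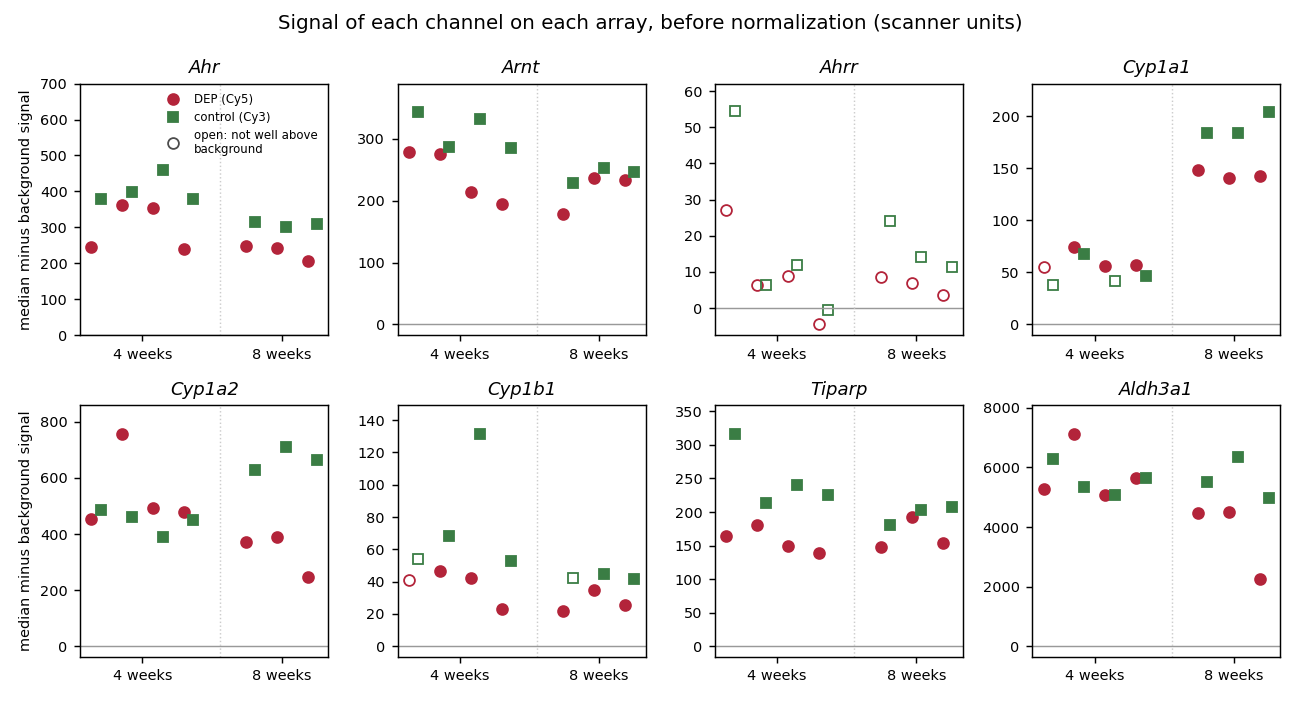
Median signal minus local background (scanner units, linear axis from 0 or below) of the DEP channel (circles) and the control channel (squares) on each array, before normalization. The replicates of 4 weeks and of 8 weeks are in order from left to right, and open symbols are spots not well above background. All symbols of *Ahrr* (probe A_55_P2128388) are open, and the *Cyp1a1* signals are 38 to 74 at 4 weeks and 141 to 204 at 8 weeks in both channels.

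*Cyp1a1* encodes the cytochrome P450 that is the most widely used readout of AhR activity. Its one probe, A_51_P279693, gave log2 ratios of 0.47, 0.08, 0.28 and 0.29 in replicates 1 to 4 of 4 weeks. After 8 weeks they were 0.08, 0.05 and 0.11. After loess all 7 values were above 0. The value of replicate 2 of 4 weeks then lay among those of 8 weeks, so that the 2 groups overlapped. Before loess the log2 ratios of 8 weeks were -0.21, -0.26 and -0.35, and with median centring their mean was -0.11. The mean at 4 weeks was 0.28 ± 0.16 (SD, n = 4), a 1.22-fold higher level (SE 0.06, limma adjusted p = 0.0115). At 8 weeks it was 0.08 ± 0.03 (SD, n = 3), with a 95% confidence interval of -0.09 to 0.25 (adjusted p = 0.455). The difference between the times, -0.20, did not pass (adjusted p = 0.157). With median centring in place of loess it was -0.38 and passed (adjusted p = 0.0167), and with the processed signals it was -0.87 and did not (adjusted p = 0.206).

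The signal of *Cyp1a1* at 4 weeks was close to background. It was 55, 74, 56 and 57 in DEP and 38, 67.5, 42 and 46.5 in control. The probe was well above background on 3 of the 4 arrays in DEP and on 2 of the 4 in control. At such signals the size of the ratio depends on the background correction. The 4-week mean was 0.44 with a smaller normexp offset of 10, which was tried after seeing the data, and 1.01 with the scanner software's own processed signals, where it still passed (adjusted p = 0.0106 and 0.0416). It was 0.22 to 0.35 when any one array was left out, and passed each time.

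The difference between the 2 sets of arrays was larger than that between DEP and control for this gene. The signals at 8 weeks were 148, 141 and 143 in DEP and 184, 184 and 204 in control. The normalized control level rose from a log2 intensity of 6.70 ± 0.20 (SD, n = 4) to 7.85 ± 0.10 (SD, n = 3), a 2.23-fold higher intensity, and the DEP level from 6.98 ± 0.06 to 7.93 ± 0.13. The control values of the 2 times did not overlap, which was so for 45.5% of 20442 genes with values on all arrays. *Cyp1a1* ranked at 484 of them by the size of its difference, so that 2.37% were at least as far apart. No test is given for this comparison of levels between slides.

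*Cyp1a2*, the neighbouring P450 gene that is best known from liver, changed in opposite directions at the 2 times. With probe A_52_P595871, its log2 ratio was 0.26, 0.64, 0.46 and 0.38 in replicates 1 to 4 of 4 weeks. It was -0.26, -0.34 and -0.67 in replicates 1 to 3 of 8 weeks. DEP was higher on 4 of 4 arrays and then lower on 3 of 3. The mean was 0.44 ± 0.16 (SD, n = 4) at 4 weeks, a 1.35-fold higher level (SE 0.08, adjusted p = 0.00576). At 8 weeks it was -0.43 ± 0.22 (SD, n = 3), a 1.34-fold lower level (SE 0.10, adjusted p = 0.0118). The difference was -0.86 (95% confidence interval -1.16 to -0.56, adjusted p = 0.00244). Of all genes, 86.6% had a smaller change at 4 weeks, 83.6% at 8 weeks and 94.3% a smaller difference.

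The *Cyp1a2* signals at 4 weeks were 452.5, 757, 494 and 477 in DEP and 485, 461, 390 and 451 in control. At 8 weeks they were 373, 389 and 248.5 in DEP and 628.5, 708.5 and 664.5 in control. The 2 channels overlapped at 4 weeks before normalization and stood apart at 8 weeks. The normalized control level was 1.52-fold higher at 8 weeks than at 4 weeks (9.40 ± 0.04 against 8.79 ± 0.10 on the log2 scale), and the DEP level was 8.97 ± 0.18 against 9.23 ± 0.16. The call at 4 weeks and that of the difference held under every alternative tried. The call at 8 weeks was lost without replicate 3 of 8 weeks (log2 ratio -0.30, adjusted p = 0.061), with the software's processed signals (-0.41, adjusted p = 0.0641) and with the methods' t-test (adjusted p = 0.0622).

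*Cyp1b1* encodes the family member that prevails outside the liver. Its probe A_51_P255456 gave log2 ratios of 0.08, -0.26, -0.79 and -0.31 in replicates 1 to 4 of 4 weeks. At 8 weeks they were -0.16, 0.04 and 0.04. Replicate 3 of 4 weeks lay farthest from 0, and the groups overlapped. The mean at 4 weeks was -0.32 ± 0.36 (SD, n = 4) and did not pass (adjusted p = 0.0728), although it did without replicate 1 (-0.45, adjusted p = 0.0208). Without replicate 3 it was -0.17 (adjusted p = 0.204). At 8 weeks it was -0.03 ± 0.12 (SD, n = 3, 95% confidence interval -0.35 to 0.30). The signals were low, with 22 to 46.5 in DEP and 41.5 to 131.5 in control over all arrays.

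*Tiparp* encodes an ADP-ribosyltransferase that is induced by AhR and limits its activity. Its brighter probe, A_51_P514961, gave log2 ratios of -0.39, -0.19, -0.38 and -0.25 in replicates 1 to 4 of 4 weeks. At 8 weeks they were 0.11, 0.29 and 0.16. After loess, all 4 arrays were lower in DEP at 4 weeks, all 3 were higher at 8 weeks, and the groups did not overlap. Before normalization, the DEP signal of this probe was the lower one on every array. At 8 weeks the signals were 148.5, 192 and 154 in DEP and 180, 203 and 208 in control. Loess added 0.29 to 0.46 to the log2 ratio there. The 4-week mean of -0.30 ± 0.10 (SD, n = 4) was a 1.23-fold lower level (SE 0.05, adjusted p = 0.00429). Averaged over both *Tiparp* probes it was -0.19 and did not pass (adjusted p = 0.0593). The 8-week mean of 0.19 ± 0.09 (SD, n = 3) did not pass (adjusted p = 0.0515). The difference of 0.49 passed (95% confidence interval 0.30 to 0.68, adjusted p = 0.00438), and did so under every alternative tried.

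The dimmer *Tiparp* probe, A_55_P1985890, differed from the brighter one in which time passed. Its log2 ratio was -0.34, 0.17, -0.13 and 0.0023 at 4 weeks. It was 0.33, 0.52 and 0.67 at 8 weeks. The 8-week signals of this probe were higher in DEP before normalization too (96, 123 and 129.5, against 85.5, 95.5 and 101.5 in control). The 4-week mean was -0.07 and did not pass (adjusted p = 0.539), whereas the 8-week mean of 0.51 did (1.42-fold, adjusted p = 0.00699). The difference between the times passed for both probes (0.58 for this one, adjusted p = 0.0157). With median centring in place of loess, the 8-week mean of the brighter probe was -0.011, or 0.09 above the median of all genes, and its difference between the times was 0.37.

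*Aldh3a1* encodes an aldehyde dehydrogenase that is abundant in surface epithelia, and its probes were the brightest of the group. With A_55_P2065562 the log2 ratio was 0.08, 0.38, 0.19 and 0.31 at 4 weeks. It was 0.04, -0.10 and -0.60 at 8 weeks, with replicate 3 far below the others. The values of the 2 times did not overlap, but their nearest values were 0.08 and 0.04. The means of 0.24 ± 0.13 (SD, n = 4) and -0.22 ± 0.33 (SD, n = 3) did not pass limma's test (adjusted p = 0.102 and 0.185), and neither did the difference of -0.46 (adjusted p = 0.0589). The 4-week mean passed when replicate 3 of 8 weeks was left out (adjusted p = 0.0251). Without that array the 8-week mean was -0.033 and the difference -0.27. A_55_P2101216 gave means of 0.07 and -0.26 (adjusted p = 0.57 and 0.0766). DEP signals of the first probe were 5065 to 7126 at 4 weeks and 2267.5 to 4514 at 8 weeks.

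For 4 of the 7 genes (*Ahr*, *Cyp1a2*, *Tiparp* and *Aldh3a1*), the log2 ratios of the 2 times did not overlap. This is 57.1% of the 7, where 42.2% of 20442 genes showed the same. In the control channel alone, 5 of the 7 did not overlap between the times, against the 45.5% of all genes given above. Besides *Cyp1a1* and *Cyp1a2*, which were higher at 8 weeks, these were *Ahr* (-0.27 on the log2 scale), *Arnt* (-0.26) and *Cyp1b1* (-0.42), which were lower. *Tiparp* (-0.23) and *Aldh3a1* (0.14) overlapped. Whether the control RNA or its slide differed between the times cannot be told apart.

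**Figure D3:**
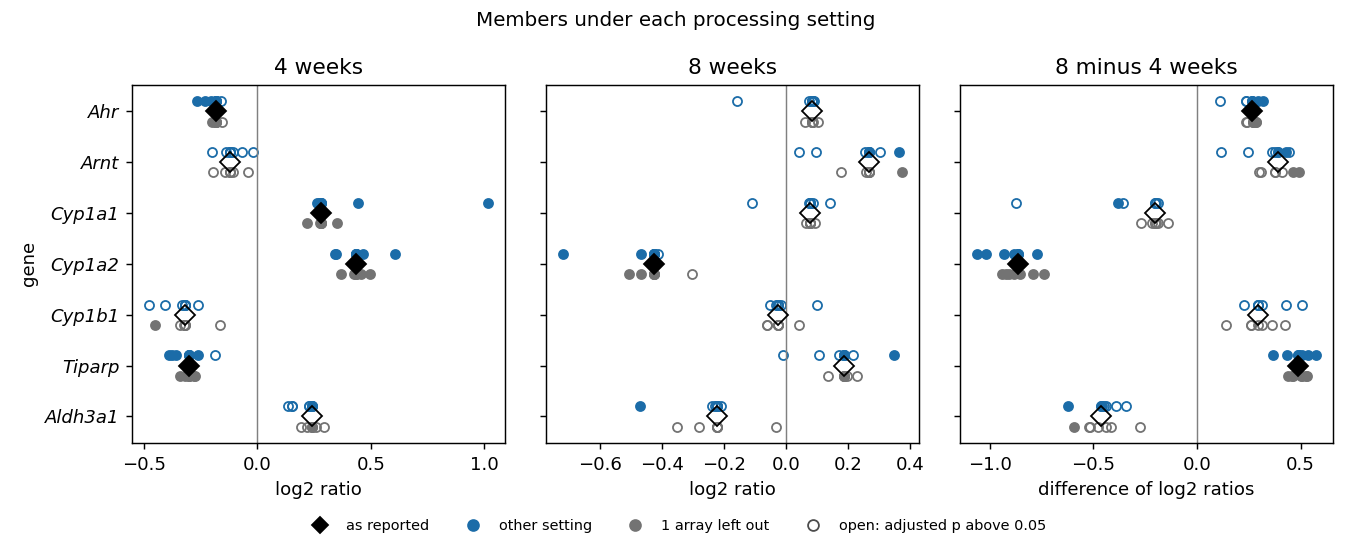
Log2 ratio at 4 weeks, at 8 weeks and their difference for each of the 7 genes, as reported (diamonds), with 1 array left out (grey) and under the other settings (blue). Filled symbols have an adjusted p of at most 0.05. *Cyp1a2* at 4 weeks and the differences of *Cyp1a2* and *Tiparp* are filled throughout, *Cyp1a1* at 4 weeks reaches 1.01 with the processed signals, and the 8-week symbols of *Ahr*, *Cyp1a1*, *Cyp1b1* and *Tiparp* lie on both sides of 0.

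The genes nearest to *Ahr* in their log2 ratios over the 7 arrays were *Polr3g*, *Slc29a1* and *Sdhd*, with root mean square differences of 0.039, 0.040 and 0.050. Within 0.1 of *Ahr* there were 212 genes. Nearest to *Cyp1a1* were *Gucy2d* and *Spice1* (0.063 and 0.065) and a transcript without a symbol (0.069), and 53 genes lay within 0.1. None of the nearest genes named here was another gene of the pathway. The genes within 0.1 were only counted, and were not searched for genes of the pathway. By these counts, small changes like those of *Ahr* or *Cyp1a1* were shared by many genes of the array.

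The genes around the receptor were taken from lists by role. For these lists and the marker lists, the shares of all genes that passed were 38.1% at 4 weeks and 37.2% at 8 weeks. Of 20723 genes, 4466 rose and 3432 fell at 4 weeks, and 4203 rose and 3500 fell at 8 weeks. With median centring the shares were 36.5% and 45.4%. A count near these shares is not particular to its list. Of the enzymes of tryptophan breakdown, which make or remove AhR ligands, 3 of 7 were tested, and all 3 rose at 8 weeks. They were *Il4i1*, an amino acid oxidase (0.51, adjusted p = 0.00188), *Haao* (0.43, adjusted p = 0.00991) and *Kmo* (0.26, adjusted p = 0.00798). At 4 weeks *Kmo* alone rose (0.21). The other 4, *Ido1*, *Ido2*, *Tdo2* and *Kynu*, did not pass the filter on dim probes. With median centring, 2 of the 3 rose at 8 weeks, and *Haao* was not called.

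Of 5 genes of the cytoplasmic receptor complex, 1 rose and 1 fell at 4 weeks, and 1 fell at 8 weeks. The co-chaperone *Ptges3* (p23) fell by 0.38 at 4 weeks (adjusted p = 0.00678), and the kinase *Src*, which is bound in the complex, rose by 0.26 (adjusted p = 0.00966). *Hsp90ab1*, one of the HSP90 genes, fell by 0.31 at 8 weeks (adjusted p = 0.0373). With the software's processed signals the 4-week call of *Src* was lost.

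Of genes whose proteins compete for ARNT, 5 were tested. *Epas1*, which encodes HIF-2α, rose by 0.90 at 4 weeks (adjusted p = 2.57e-05) and fell by 0.39 at 8 weeks (adjusted p = 0.00273). *Hif1a* fell at both times, with -0.97 on the 3 arrays of 4 weeks that gave a value (adjusted p = 0.00239) and -0.51 at 8 weeks (adjusted p = 0.0294). *Hif3a* rose at 4 weeks (0.34, adjusted p = 0.00175) and *Sim2* at 8 weeks (0.70, adjusted p = 0.00077). In all, 2 rose and 1 fell at 4 weeks, and 1 rose and 2 fell at 8 weeks. The 4-week call of *Hif3a* was lost with the software's processed signals.

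Of 8 coregulators, 4 rose and 0 fell at 4 weeks, and 1 rose and 2 fell at 8 weeks. The acetyltransferase gene *Crebbp* rose at both times (0.74, adjusted p = 5.52e-05, and 0.36, adjusted p = 0.00321). The coactivator *Ncoa1* rose at 4 weeks (0.34, adjusted p = 0.0112) and fell at 8 weeks (-0.42, adjusted p = 0.0077), and *Ncoa3*, another coactivator, rose at 4 weeks (0.28). With median centring, 2 of the 8 rose and 1 fell at 4 weeks and 5 fell at 8 weeks, and among the called genes *Ncoa3* was lost at 4 weeks and *Crebbp* at 8 weeks.

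A further list held 20 genes that respond to AhR in other settings, of which 18 matched a probe and were tested. At 4 weeks 2 rose and 3 fell, and at 8 weeks 1 rose and 7 fell, with medians of 0.0039 and -0.08. *Nqo1*, a quinone reductase that also answers to Nrf2, rose by 0.27 at 4 weeks (adjusted p = 0.0123) and fell by 0.75 at 8 weeks (adjusted p = 0.000199). Its call at 4 weeks was lost with median centring. *Ugt1a6b*, a glucuronosyltransferase, fell at both times (-0.38, adjusted p = 0.00374, and -1.42, adjusted p = 1.02e-05), but its transcript shares most of its sequence with *Ugt1a6a* (-0.02 and -0.27), so that their signals may be mixed. The glutathione transferase *Gsta2* fell at both times (-0.78 on 3 arrays, adjusted p = 0.00017, and -0.45, adjusted p = 0.00168).

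The P450 enzymes need electrons from a reductase and a heme group, and 6 genes for these were tested. *Alas1*, the rate-limiting enzyme of heme synthesis, rose by 1.01 at 4 weeks (adjusted p = 7.9e-06) and fell by 1.24 at 8 weeks (adjusted p = 4.5e-06), on 4 of 4 and 3 of 3 arrays. *Por*, the reductase that serves the P450 enzymes, rose by 0.42 (adjusted p = 0.00314) and fell by 0.42 (adjusted p = 0.00608), much as *Cyp1a2* did. *Cyb5r3* and *Cyb5a*, of the cytochrome b5 system, fell at 8 weeks (-0.63 and -0.41). *Hmox1*, the heme oxygenase that breaks heme down, fell at 4 weeks (-0.83 ± 0.71, SD, n = 4, adjusted p = 0.0245). Its spread was wide beside that of *Alas1* at 4 weeks (SD 0.08). Of the 6 genes of this list, 2 rose and 1 fell at 4 weeks, and 0 rose and 4 fell at 8 weeks. With median centring these counts were 2 and 3, and 0 and 5.

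**Figure D4:**
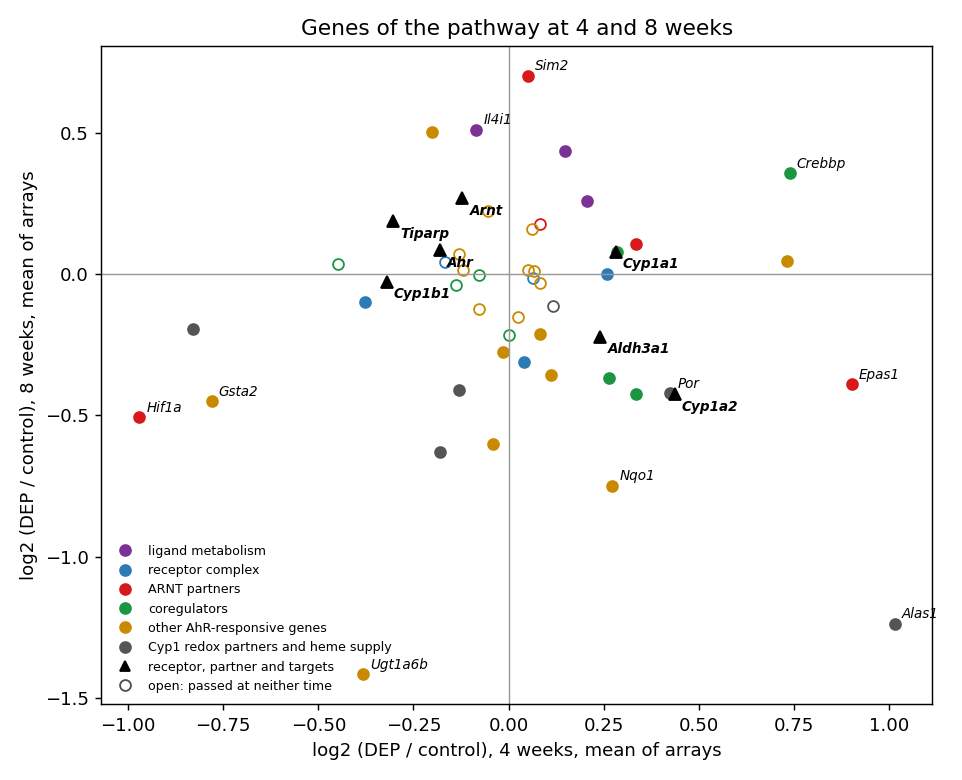
Mean log2 ratio at 4 weeks (4 arrays) against that at 8 weeks (3 arrays) for the tested genes of the 6 pathway lists (circles, coloured by list) and for the receptor, its partner and its targets (triangles). Filled circles passed an adjusted p of 0.05 at either time. *Cyp1a2* lies near the centre compared with *Alas1* at 1.01 and -1.24, and *Ugt1a6b* and *Hif1a* were lower in DEP at both times.

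The markers of the cell types that nasal tissue holds moved as well. The signals of all 8 olfactory neuron markers, all 7 sustentacular markers and all 6 fibroblast markers were well above background in all 14 channels of the 7 arrays. Of the olfactory neuron markers, 6 rose and 0 fell at 4 weeks, and 0 rose and 8 fell at 8 weeks. *Omp*, the marker protein of mature olfactory neurons, gave 0.89 and -0.43. Of the sustentacular markers, 6 rose and 0 fell at 4 weeks, and 1 rose and 6 fell at 8 weeks, such as *Cyp2g1*, an olfactory P450, with 0.16 and -0.50. The exception was *Ermn*, which rose at both times (0.32 and 1.70). With median centring, 4 of the neuronal and 4 of the sustentacular markers rose and 0 fell at 4 weeks, and the 8-week counts were the same. The 4-week call of *Cyp2g1* was lost there.

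The signs of *Cyp1a2* were thus those of most neuronal and sustentacular markers. The summed normalized intensity of the neuronal list was 81515 to 96689 in control and 148190 to 163060 in DEP at 4 weeks, and 134650 to 151070 in control and 96358 to 101080 in DEP at 8 weeks. For the 6 sustentacular markers with values on all arrays, it was 61077 to 72245 in control and 85612 to 110180 in DEP at 4 weeks, and 138800 to 161370 in control and 96673 to 102540 in DEP at 8 weeks. Both sums were also higher in the control channel of 8 weeks than in that of 4 weeks, as the *Cyp1a1* and *Cyp1a2* levels were. This was not particular to these 2 lists. The control sum of the ciliated cell markers was 4824.7 to 5103.3 at 4 weeks and 7303.4 to 7440.5 at 8 weeks. In the DEP channel the neuronal sum was lower at 8 weeks than at 4 weeks, whereas the *Cyp1a1* level was higher (7.93 against 6.98). The DEP sum of the ciliated cell markers was higher too (7535.4 to 8216.7 against 5773.1 to 6448.8). The part of these cells in the changes of *Cyp1a1* and *Cyp1a2* was not tested.

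The fibroblast markers went the other way. At 4 weeks 0 rose and 6 fell, and at 8 weeks 3 rose and 0 fell, with *Postn*, a matrix protein, at -1.30 and 0.69 and *Lum*, a proteoglycan, at -0.98 and 0.48. With median centring 2 rose and 1 fell at 8 weeks. These were the signs of *Ahr* and *Tiparp* after loess. Their summed intensity was 60507 to 73550 in control and 49395 to 55268 in DEP at 4 weeks, and 62724 to 64363 in control and 76071 to 82959 in DEP at 8 weeks. Their part in the changes of *Ahr* and *Tiparp* was not tested.

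Of 7 squamous epithelium markers, 1 rose and 5 fell at 4 weeks, and 2 rose and 2 fell at 8 weeks. The keratin genes *Krt13* (-1.27) and *Krt4* (-1.19) fell at 4 weeks, and the basal keratin gene *Krt14* gave -0.54 and 0.73. The summed intensity of the squamous list overlapped between the channels at 4 weeks (19479 to 22170 in control, 18002 to 21590 in DEP) and at 8 weeks (22026 to 24084 and 22841 to 27558). Of 6 tested markers of ciliated cells 4 rose at 4 weeks and 2 at 8 weeks, and 0 fell. Of 6 secretory markers 1 rose and 3 fell, then 3 rose and 1 fell. Of 5 endothelial markers 1 rose and 2 fell, then 0 changed, and of 5 macrophage markers 2 fell at 4 weeks and 1 at 8 weeks. With median centring, 1 of the secretory markers rose and 2 fell at 8 weeks, and 3 of the ciliated and 3 of the macrophage markers fell.

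**Figure D5:**
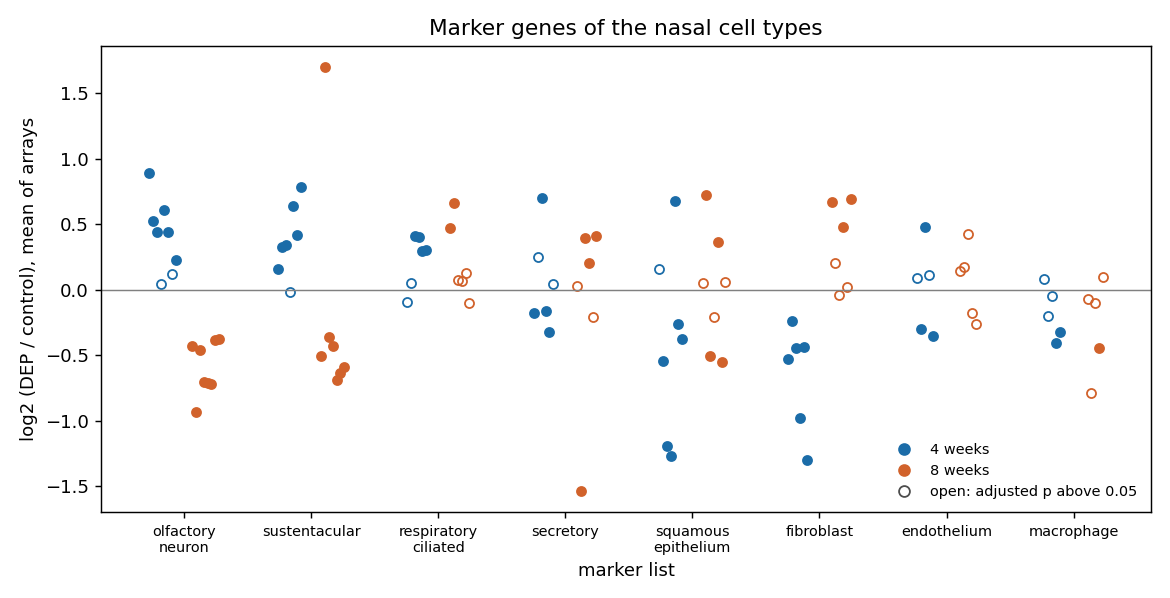
Mean log2 ratio of DEP over control for each tested marker gene of 8 cell types, at 4 weeks (blue, 4 arrays) and 8 weeks (orange, 3 arrays). Filled points have an adjusted p of at most 0.05. The olfactory neuron and sustentacular points lie above 0 at 4 weeks and, *Ermn* apart, below 0 at 8 weeks, with *Sult1c1* at -0.02 at 4 weeks the other exception, and the fibroblast points lie below 0 at 4 weeks.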

How the data were processed

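RNA of DEP-exposed (Cy5) and control (Cy3) nasal tissue was measured on 7 two-channel Agilent arrays of design 4x44K V2, 4 of 4 weeks and 3 of 8 weeks. The authors deposited 1 Feature Extraction 10.10.1.1 file per array, whose median signals and backgrounds are intensity values without normalization and whose processed signals are intensity values background-subtracted and dye-normalized by the software. Neither the GeneSpring normalization nor the ExDEGA selection of the study's methods enters these values. Median signals were used, since mean signals are not among the columns of the files used here.

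Background was corrected in R 4.3.3 by the normexp method of limma 3.58.1 (offset 50), fitted without spots flagged as background outliers and applied to every spot, followed by loess within arrays. Fitted on all spots, the normexp background mean was -614 in the DEP and -287 in the control channel of replicate 2 of 4 weeks, and -67.5 in the DEP channel of replicate 2 of 8 weeks, against -16.2 to -6.4 elsewhere. Non-uniform spots were dropped and the spots of each probe averaged. Of 39429 probes, 28330 were named through RefSeq genes of GRCm38.p6, and 15757 of the 20723 tested names are symbols. One model over the 7 arrays gave the mean of each time and their difference, tested by limma with Benjamini-Hochberg adjustment. Channel levels were compared between arrays after Aquantile normalization. The steps from background correction to the limma test were also run on simulated data, with changes put only into brighter probes. The channel levels were not part of that run.

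The genes named are the 8 members with every probe, up to 4 genes of each list that passed at either time with the smallest adjusted p, and the 3 genes nearest to *Ahr* and to *Cyp1a1*. Some genes of the lists count in their lists' totals but are not reported here. *Hmox1*, *Ugt1a6a* and *Sult1c1* were named after their values were seen. The members and lists were chosen with earlier results of these data known. The alternatives were other background corrections, normalizations, filters, probe rules, array subsets and tests. The precision is limited by the number of arrays, since intensities carry no counting error.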

Additional observations from a re-analysis of the deposited data

Results flagged for a closer look

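The response to DEPs differed between the exposure times for 3 of the 7 genes, by limma's test of the difference itself. That is 42.9% of the 7, where 30.8% of all genes passed the same test. The log2 ratio at 8 weeks minus that at 4 weeks was 0.27 for *Ahr* (adjusted p = 0.0217), -0.86 for *Cyp1a2* (adjusted p = 0.00244) and 0.49 for *Tiparp* (adjusted p = 0.00438). With median centring that of *Ahr* was 0.11 and did not pass (adjusted p = 0.431). After loess, all 4 arrays of 4 weeks lay on one side of 0 and all 3 arrays of 8 weeks on the other for each of these genes. Before loess, the 8-week log2 ratios were -0.28, -0.24 and -0.45 for *Ahr* and -0.19, -0.04 and -0.29 for *Tiparp*. That of *Cyp1a2* was then -0.09 on replicate 1 of 4 weeks. An effect of the slide cannot be told apart from one of the exposure time. In the control channel the same genes differed between the times by -0.27, 0.60 and -0.23 on the log2 scale, so that the difference of *Ahr* was nearly the size of that in its control level with the sign turned. For the 7 genes, 0 of the arrays of 4 weeks stood apart from the other 3, by a rule that finds only a wide gap among 4 values. The arrays of 8 weeks were not put to this rule.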

How the results depend on the processing

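Of the alternatives to the 7 genes' log2 ratios, 284 kept the direction and the side of the threshold, 15 lost a call, 19 gained one and 5 turned the sign, all 5 at 8 weeks and of values that had not passed. In many of the alternatives the log2 ratio could not change, and only its p value could. These were the other filters, the t-test, the arrays of that time alone, and leaving out an array of the other time. The 284 is therefore no measure of how stable the directions were. With median centring the 8-week log2 ratio was -0.16 for *Ahr*, -0.11 for *Cyp1a1* and -0.011 for *Tiparp*. That of *Cyp1b1* was 0.10 with the processed signals and -0.062 to 0.041 with 1 array left out, positive without replicate 1 of 8 weeks.

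At 4 weeks, 4 of the 7 genes passed, 3 to 5 with 1 array left out, 1 with the methods' t-test (*Cyp1a2*) and 3 with the mean of all probes (*Tiparp* lost). Of all genes 38.1% passed at 4 weeks, 27.4% to 38.2% with 1 array left out, 22.4% with the t-test and 37.8% with the mean of all probes. At 8 weeks, 1 passed, and 0 to 2 with 1 array left out. The 0 was without replicate 3 of 8 weeks, and 2 passed without replicate 1 of 4 weeks (*Tiparp* added) or replicate 1 of 8 weeks (*Arnt* added). With all 7 arrays 2 passed at 8 weeks with median centring (*Aldh3a1* added), 2 with the mean of all probes (*Tiparp* added), 3 when a signal well above background was required of DEP and control on each array, and 0 by the methods' t-test. With the arrays of 8 weeks alone 2 passed (*Arnt* added). The difference passed for 3 genes, for 2 to 5 with 1 array left out (5 without replicate 1 of 8 weeks), for 5 of 5 under the filter on both channels, and for 4 with median centring, where *Ahr* was lost and *Cyp1a1* and *Aldh3a1* were added. With the processed signals *Arnt* passed at 8 weeks in place of *Cyp1a2*. Under the filter on both channels, 48.4% of all genes passed at 8 weeks and 44.3% for the difference. With median centring these shares were 45.4% and 29.7%. With 1 array left out they were 21.5% to 41.2% and 18.7% to 33.1%, and the share for the difference was 27.9% without replicate 1 of 8 weeks. At 8 weeks 41.0% of all genes passed with the arrays of 8 weeks alone and 38.9% with the processed signals. The share was 36.8% with the mean of all probes and 23.2% with the t-test.

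With the replicate number as a block, the difference passed for 2 of the tested genes and for 15.5% of all genes. That of *Ahr* was 0.24 (adjusted p = 0.123). The deviations of same-numbered arrays correlated at -0.0076 to 0.016. Whether the numbers stand for a pairing is not given in the labels, and correlations of so few arrays cannot decide it.

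Of all genes, 7898 passed at 4 weeks, against 5041 with normexp fitted on all spots and 4648 with the methods' t-test. At 8 weeks 7703 passed, against 4806 with the t-test and 4461 without replicate 2 of 8 weeks. For the difference 6381 passed, against 3874 without that replicate and 3202 with the block. Of the calls, 56.5% were higher in DEP at 4 weeks, 54.6% at 8 weeks and 48.1% were positive in the difference. These shares were 42.5%, 27.0% and 28.9% with median centring and 67.5%, 50.9% and 35.6% with the processed signals.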
